A study of Mus musculus with 9 samples.

Results

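Ribosome biogenesis and nucleolar genes code for the proteins that make, trim, modify and assemble ribosomal RNA (rRNA). A list of 44 such genes was followed in regenerating mouse liver. A gene was kept where a probe carrying its symbol, or an older symbol of it, had a detection p under 0.05 on at least 4 of the 9 arrays. Of the 44 genes, 42 had a probe and 34 were kept, by 54 of their 81 probes. The whole array held 45281 probes, of which 15687 were kept, and 11559 genes and unnamed probes were tested. Each kept gene was represented by its kept probe with the highest mean signal.

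The study asked how lymphotoxin β receptor and the p55 TNF receptor act in liver regeneration. All mice were C57BL/6, all had a partial hepatectomy (PHx, surgical removal of part of the liver), and whole liver was taken 12 h later. The first group were LTRβ-/- mice, which lack the lymphotoxin β receptor, given Etanercept, a soluble TNF receptor that binds TNF, 24 h before surgery (KO 1 to KO 5). The second group were WT mice labelled Control (WT 1 to WT 4); the labels do not say what they received. Genotype and drug changed together, so the effect of the one and of the other cannot be told apart, and no liver without surgery was analysed here. Each array held RNA of 1 liver, and the numbers 1 to 5 and 1 to 4 only name the arrays. The age and sex of the mice are not given in the labels. The labels give a surgery day for each mouse. Day 1 held KO 1 and WT 4, day 2 held KO 4 and WT 2, day 3 held WT 3, day 4 held KO 2 and KO 5, and day 5 held KO 3 and WT 1.

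Ribosomes are built in the nucleolus, where RNA polymerase I transcribes the ribosomal DNA into a long precursor RNA. Small nucleolar ribonucleoproteins (snoRNPs) of the box C/D and box H/ACA classes guide methylation and pseudouridylation of that RNA, the small-subunit processome cuts and folds the part that becomes the small (40S) subunit, and a separate set of factors assembles the large (60S) subunit. In liver that regrows after resection, hepatocytes enlarge and make new ribosomes before they divide. Many genes of this machinery carry the E-box CACGTG, the site bound by Myc with its partner Max, near their start.

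For that reason the promoter of each gene (250 bases before to 50 bases after its start, RefSeq, build GRCm38.p6) was searched for CACGTG, which reads the same on both strands. Of the 44 genes, 39 had a promoter in the table, and 11 of these (28.2%) held the motif, against 920 of 7585 genes tested on the arrays (12.1%) and 2187 of 27025 genes in the table (8.09%). Among the kept genes the motif stood in 9 of 31 (29.0%), namely Imp4, Ltv1, Mybbp1a, Nle1, Nop2, Pes1, Pno1, Tsr1 and Wdr43. The ETS-type motif CCGGAA, searched on both strands, stood in 18 of the 39 promoters (46.2%), against 31.2% of the genes tested and 16.7% of the genes in the table. A match describes the letters in this window and is not a measured binding site. Shown here, 5′ to 3′ on the gene's own strand, are 3 promoters with CACGTG in capitals: those of Mybbp1a and Tsr1, which had the smallest p in either direction in the group comparison below, and of Nle1, which had the highest difference. Mybbp1a lies at chr11:72441077-72441376 on the plus strand, Tsr1 at chr11:74897830-74898129 on the plus strand and Nle1 at chr11:82908346-82908645 on the minus strand, and the motif begins 40, 24 and 23 bases after the start site.
Mybbp1a: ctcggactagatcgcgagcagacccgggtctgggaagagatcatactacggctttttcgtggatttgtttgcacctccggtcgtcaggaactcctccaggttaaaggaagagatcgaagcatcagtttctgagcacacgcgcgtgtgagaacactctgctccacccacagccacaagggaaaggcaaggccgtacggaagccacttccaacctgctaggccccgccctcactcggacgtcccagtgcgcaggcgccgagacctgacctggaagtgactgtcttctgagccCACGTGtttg
Tsr1: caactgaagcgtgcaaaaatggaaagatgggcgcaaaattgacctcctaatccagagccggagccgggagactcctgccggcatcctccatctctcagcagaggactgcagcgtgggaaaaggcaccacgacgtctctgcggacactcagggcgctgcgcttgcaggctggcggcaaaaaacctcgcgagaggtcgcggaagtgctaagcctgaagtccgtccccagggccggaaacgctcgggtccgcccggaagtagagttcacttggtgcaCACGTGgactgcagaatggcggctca
Nle1: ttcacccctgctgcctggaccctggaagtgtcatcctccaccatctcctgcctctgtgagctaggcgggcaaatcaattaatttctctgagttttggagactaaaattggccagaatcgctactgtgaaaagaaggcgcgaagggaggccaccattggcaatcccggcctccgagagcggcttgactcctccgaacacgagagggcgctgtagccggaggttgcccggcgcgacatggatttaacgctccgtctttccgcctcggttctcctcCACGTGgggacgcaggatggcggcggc
The 9 kept genes with CACGTG had a median group difference, KO minus WT on the log2 scale, of 0.32, and 8 of them had the higher mean in the KO livers. The 22 kept genes with a promoter and without the motif had a median difference of 0.21, with 17 higher in mean. Of all features 47.6% were higher in mean. With median scaling in place of quantile normalization, Imp4, Pes1, Pno1, Tsr1 and Wdr43 were lower in mean. Ltv1, Mybbp1a, Nle1 and Nop2 stayed higher, where 22.7% of all features were. Of the 22 others, Brix1, Heatr1, Noc2l and Polr1c were among those that turned lower. With surgery day as a block the medians were 0.13 with and −0.12 without the motif. That block takes no group difference from days without both groups. These medians describe the lists and were not tested against each other.

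Arrays carried a mean signal of 336 to 438 intensity units, with 13926 to 16186 probes detected, except KO 4, with a mean signal of 143 and 9493 probes. All 34 kept genes were detected on each array but KO 4, where 27 were. In the KO livers the Ltbr probe read 91.4 to 221 raw intensity units, against 161 to 236 in the WT livers, a normalized log2 difference of −0.78 ± 0.35 (SE, limma adjusted p = 0.931); whether that probe lies in the deleted part is not known here, so it does not check the genotype. Of 10 hepatocyte markers 10 were kept, with a summed normalized intensity of 77934 to 102805 in KO livers and 88207 to 111804 in WT livers. Of 13 Kupffer cell and macrophage markers 11 were kept, all 11 had the higher mean in the KO livers (median difference 0.53), and their summed intensity was 6987 to 8943 in KO livers and 3799 to 6506 in WT livers; the defining marker Cd5l was detected on no array. Among all features 47.6% were higher in mean. With median scaling the median of these markers was 0.15, where that of all features was −0.26. Stellate cell and smooth muscle markers, 8 of 10 kept, did not share a direction: Acta2, smooth muscle actin, was the 1 feature of the whole table that passed the test (11.29 to 11.65 in KO livers, 9.59 to 9.995 in WT livers, a difference of 1.68 ± 0.20, limma adjusted p = 0.0421), while Tagln differed by 0.86 ± 0.22 and Lrat by −1.01 ± 0.36, both with an adjusted p of 0.931. Lrat was detected on 5 arrays only. It read 6.32 in KO 1, 4.45 to 4.79 in the other KO livers and 5.84 to 6.24 in the WT livers. The part of missed detection in its difference was not tested. The part of these cells in the values below was not tested, and in whole liver fewer cells of a type and less RNA per cell cannot be told apart.

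No ribosome biogenesis gene passed the test between the groups. By limma with Benjamini-Hochberg adjustment over all 11559 features, 0 of the 34 kept genes had an adjusted p under 0.05, where 1 feature did (0.00865%), and their adjusted p-values ran between 0.931 and 0.992. At an unadjusted p under 0.05 there were 2 genes, against 473 of 11559 features (4.09%). They were Mybbp1a, with the higher mean in KO livers (1.64% of all features passed in that direction), and Tsr1, with the lower mean (2.45%). The KO and WT values overlapped in all 34, and did not overlap in 92 of all features (0.796%). Among the 34 genes the mean was higher in KO livers for 27 and lower for 7, where 47.6% of all features were higher. Their median difference was 0.23 on the log2 scale, and that of all features −0.02. With median scaling in place of quantile normalization both shifted, to −0.10 for the 34 genes and −0.26 for all features, and 13 of the 34 were higher in mean, where 22.7% of all features were. The directions given below are those after quantile normalization; with median scaling the medians by role were −0.17 for the nucleolar hub, 0.03 for RNA polymerase I, 0.01 for box C/D, −0.04 for box H/ACA, −0.14 for the processome, −0.16 for late pre-40S and −0.10 for pre-60S genes. The differences ran between −0.87 and 0.83, with standard errors of 0.21 to 0.76. In 15 genes the mean was higher by more than the standard error, in 12 it was higher by less, and 1 gene was lower by more than it. These counts were not made over all features, so they do not set the 34 genes apart. For 13 of the 34 the 95% interval lay within −1 and 1, and for 2 it excluded 0. With the authors' deposited normalized values, which carry almost no difference between surgery days 1, 2, 4 and 5, 3 of the 34 passed, namely Mybbp1a (0.49, limma adjusted p = 0.0215), Nob1 (−0.20, adjusted p = 0.0370) and Rrp9 (−0.23, adjusted p = 0.0446), where 9.27% of all features did. On the same values 0 passed without KO 4 (3.57% of all features), and 0 genes and 0 features passed with surgery day in the fit. The fit that called 3 genes had no day term and 7 residual degrees of freedom, where surgery day in the fit leaves 3. Since the day differences had been taken out of these values beforehand, its p-values are too small. In that limma fit 33.6% of all features had an unadjusted p under 0.05. The fit without KO 4 shares this limit.

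Over the 34 genes together, KO 2 and KO 5 read highest. The median deviation of the 34 genes from each gene's mean over the arrays was 0.08, 0.57, −0.04, −0.17 and 0.56 in KO 1 to KO 5, and 0.08, −0.21, −0.17 and −0.40 in WT 1 to WT 4. KO 2 and KO 5 stood above all other arrays, the other KO livers lay between the WT livers, and WT 4 was lowest. Over all features the same deviations lay between −0.05 and 0.07. KO 2 was the highest array for 17 of the 34 genes (50%, against 14.1% of all features) and KO 5 for 9 (26.5%, against 6.23%). One or the other was thus highest for 26 (76.5%). They were the 2 highest arrays for 17 (50%), against 663 of all features (5.74%). Both had surgery on day 4, which held no WT mouse, so that day and the group cannot be told apart for them. The dim KO 4 was the lowest array for 13 genes (38.2%, against 34.8% of all features) and the highest for 4 (11.8%, against 25.6%). These 4 were Polr1a, Ltv1, Pno1 and Pes1. In raw signal KO 4 was the lowest of the 9 arrays for each of them (283, 142, 613 and 200). The part of its dimness in its normalized values was not tested.

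**Figure D1:**
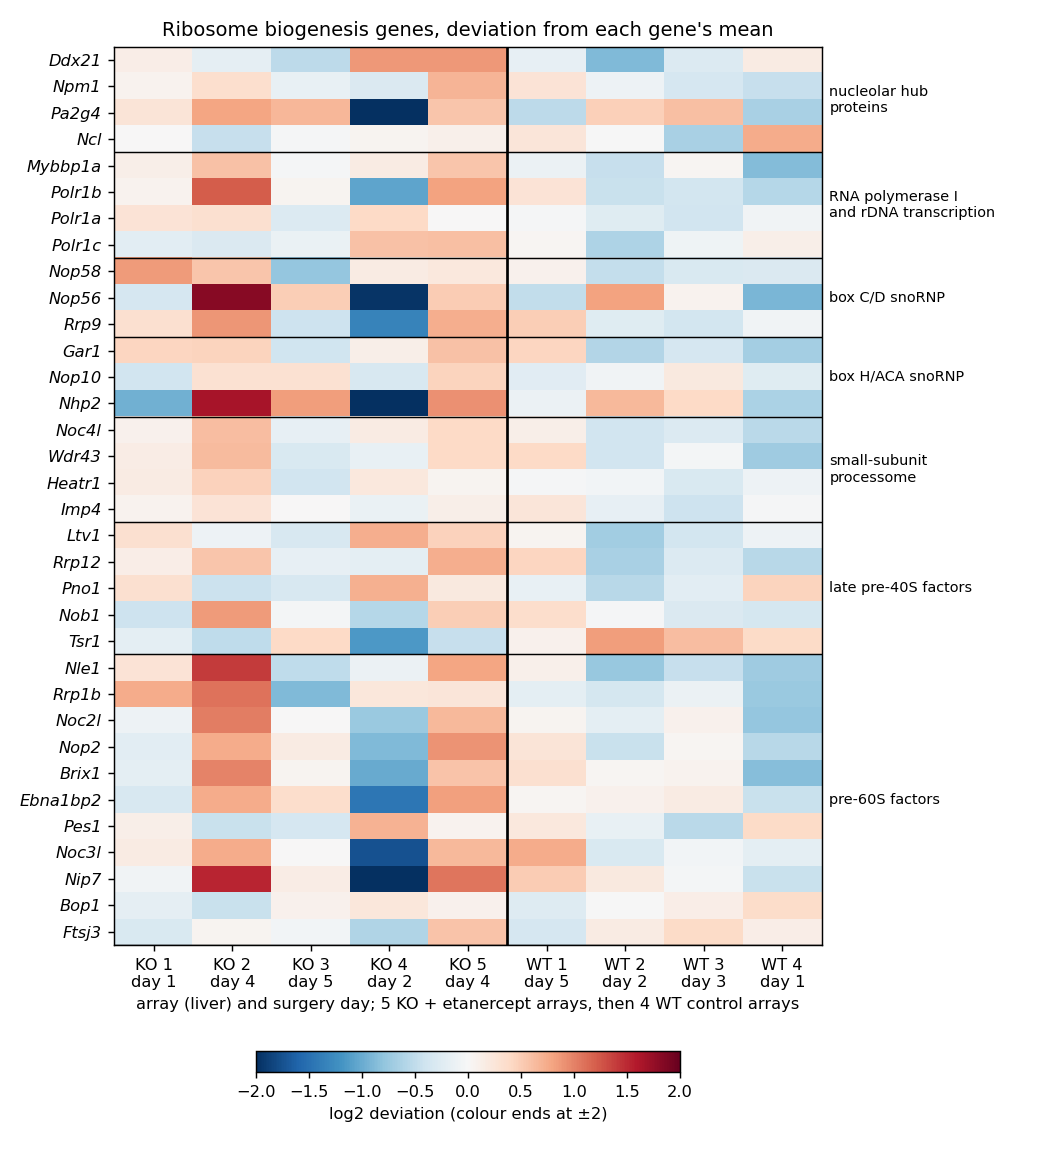
Log2 signal of the 34 kept ribosome biogenesis genes (rows, by role) on the 5 KO and 4 WT arrays (columns, with surgery day), as the deviation from each gene's mean; the colour scale ends at −2 and 2. KO 2 and KO 5 are red in most rows, and KO 4 is deep blue in several genes that were not detected there.

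**Figure D2:**
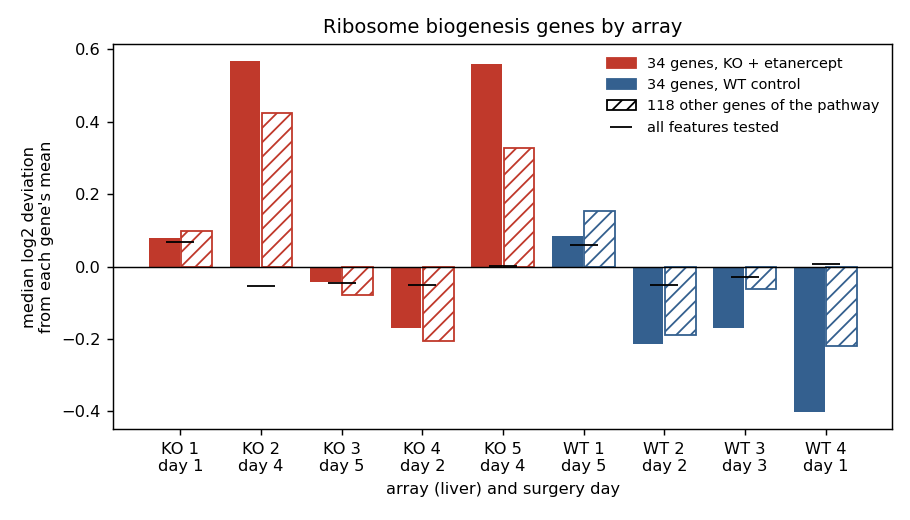
Median log2 deviation from each gene's mean (vertical axis) on each array (horizontal axis, KO arrays in red at the left, WT arrays in blue). Filled bars are the 34 kept genes, hatched bars the 118 other genes of the pathway and black dashes all 11559 features. The medians of KO 2 (0.57) and KO 5 (0.56) lie above those of the other 7 arrays, which run between −0.40 and 0.08.

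A setting added after the data were seen left out the 2 livers of day 4. The median difference of the 34 genes was then 0.01, and 17 had the higher mean in KO livers (48.3% of all features did). In limma 0 passed the test, also without adjustment (161 features did). KO 2 and KO 5 read highest over these genes, so leaving them out lowers the KO mean by itself. The lower median is thus no separate result. With surgery day as a block the median was also 0.01, and 18 were higher in mean (46.8% of all features). In that fit 0 passed, also without adjustment (175 features did). Since day 4 held no WT mouse, the block too takes no group difference from KO 2 and KO 5. Its median is thus no separate result either. With surgery day as a random block, which keeps KO 2 and KO 5, the median was 0.248, 28 were higher in mean and 0 passed. The median of all features was then −0.02. The correlation of livers within a day in that fit was −0.09, so it took out no shared day difference. On the 3 days with both groups, 1 array against 1 and without a test, the median difference was 0.37 on day 1 with 23 of 34 higher (52.0% of all features), 0.04 on day 2 with 18 higher (49.5%) and −0.26 on day 5 with 9 higher (42.2%). The days thus did not share a direction. Without day 4 and with the day block, the KO side of the difference rested on KO 1, KO 3 and the dim KO 4, and the role medians spread. Without day 4 the median difference was 0.26 for the RNA polymerase I genes, 0.19 for the late pre-40S factors, 0.10 for the processome, −0.02 for the nucleolar hub, −0.04 for box H/ACA, −0.13 for the pre-60S factors and −0.44 for box C/D. With the day block it was 0.24, 0.19, 0.10, −0.11, 0.05, −0.06 and −0.40 in the same order. Without the dim array KO 4 the median was 0.41 and 29 were higher in mean (49.0% of all features), again with 0 past the threshold. The role medians then lay between 0.31 and 0.53. For box C/D it was 0.45, and its 3 kept genes include Nop56 and Rrp9, both missed on KO 4. The 27 genes detected on all 9 arrays had a median difference of 0.29, with 24 higher in mean, where 53.6% of all features so detected were. The 7 genes missed on KO 4, namely Polr1b, Nop56, Rrp9, Nhp2, Tsr1, Nip7 and Noc3l, had a median of −0.08 with 3 higher. Of the features missed on at least 1 array of either group, an unlike set, 39.0% were higher. Since these 7 genes were grouped by a KO 4 value under detection, leaving out KO 4 was bound to move their median. Without KO 4 it was 0.53, with Tsr1 alone lower in mean (−0.69), and 0.39 for the 27 others. The part of the missed detection in these differences was not tested.

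The nucleolar hub proteins did not share a direction. Of Ncl, Npm1, Ddx21 and Pa2g4, 0 passed the test, 3 had the higher mean in KO livers, and the median difference was 0.16. Nucleolin (Ncl) is the abundant RNA-binding protein of the nucleolus. Its normalized log2 signal was 8.09, 7.61, 8.04, 8.13 and 8.17 in KO 1 to KO 5, and 8.31, 8.07, 7.42 and 8.81 in WT 1 to WT 4. The KO values lay inside the range of the WT values. The difference was −0.15 ± 0.28 (SE), with a limma adjusted p of 0.945. Npm1, nucleophosmin, is a histone and ribosome assembly chaperone. Its signal was 12.51, 12.77, 12.29, 12.15 and 13.12 in KO 1 to KO 5 and 12.71, 12.33, 12.10 and 11.98 in WT 1 to WT 4. KO 5 and KO 2 were the highest, the groups overlapped, and the difference was 0.29 ± 0.26. Ddx21 is an RNA helicase that links rRNA transcription and processing. It read 10.06, 9.75, 9.41, 10.79 and 10.81 in KO 1 to KO 5 and 9.78, 9.05, 9.66 and 10.10 in WT 1 to WT 4. KO 4 and KO 5 stood above the rest, KO 1, KO 2 and KO 3 lay within the WT range, and the difference was 0.52 ± 0.34. In raw signal the dim KO 4 was the lowest array for Ddx21, at 344. Pa2g4, a ribosome-binding growth regulator, differed by 0.04 ± 0.58.

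All 4 genes of RNA polymerase I and rDNA transcription had the higher mean in KO livers, with a median difference of 0.41 and 0 past the threshold; with median scaling Polr1a and Polr1c were lower in mean. Mybbp1a, a nucleolar protein that binds Myb and takes part in rRNA transcription and processing, had the smallest p among the genes that were higher in mean. Its signal was 10.37, 10.84, 10.23, 10.42 and 10.81 in KO 1 to KO 5, against 10.14, 9.79, 10.30 and 9.39 in WT 1 to WT 4. Every KO liver but KO 3 lay above every WT liver, and KO 3 lay just below WT 3. The means were 10.53 ± 0.28 (SD, n = 5) in KO livers and 9.90 ± 0.41 (SD, n = 4) in WT livers, a difference of 0.63 ± 0.25 (SE), or 1.55-fold, with a 95% interval of 0.07 to 1.19 and a limma adjusted p of 0.931. Its 2 other kept probes differed by 0.51 and 0.36, and with surgery day as a block the difference was 0.57.

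Polr1a codes for the largest subunit of the polymerase. It read 10.30, 10.34, 9.75, 10.42 and 10.04 in KO 1 to KO 5 and 9.99, 9.79, 9.65 and 9.96 in WT 1 to WT 4. Here again KO 3 alone of the KO livers lay within the WT range, and the difference was 0.32 ± 0.22. Polr1a had 3 other kept probes, which differed by −0.03, 0.16 and 0.02, so its probes did not share 1 direction. Polr1b, the next largest subunit, read 7.36, 8.50, 7.35, 6.23 and 8.09 in KO 1 to KO 5 and 7.56, 6.84, 6.93 and 6.72 in WT 1 to WT 4. The KO livers held both the highest values, in KO 2 and KO 5, and the lowest, in KO 4, where the probe was not detected. Its difference was 0.49 ± 0.41 over all arrays and −0.03 without day 4. Polr1c, a subunit shared with RNA polymerase III, read 8.99, 8.90, 9.07, 9.77 and 9.79 in KO 1 to KO 5 and 9.24, 8.58, 9.10 and 9.31 in WT 1 to WT 4. KO 4 and KO 5 were the highest, the other KO livers lay within the WT range, and the difference was 0.25 ± 0.28. In raw signal the dim KO 4 was the lowest array for Polr1c, at 202.

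**Figure D3:**
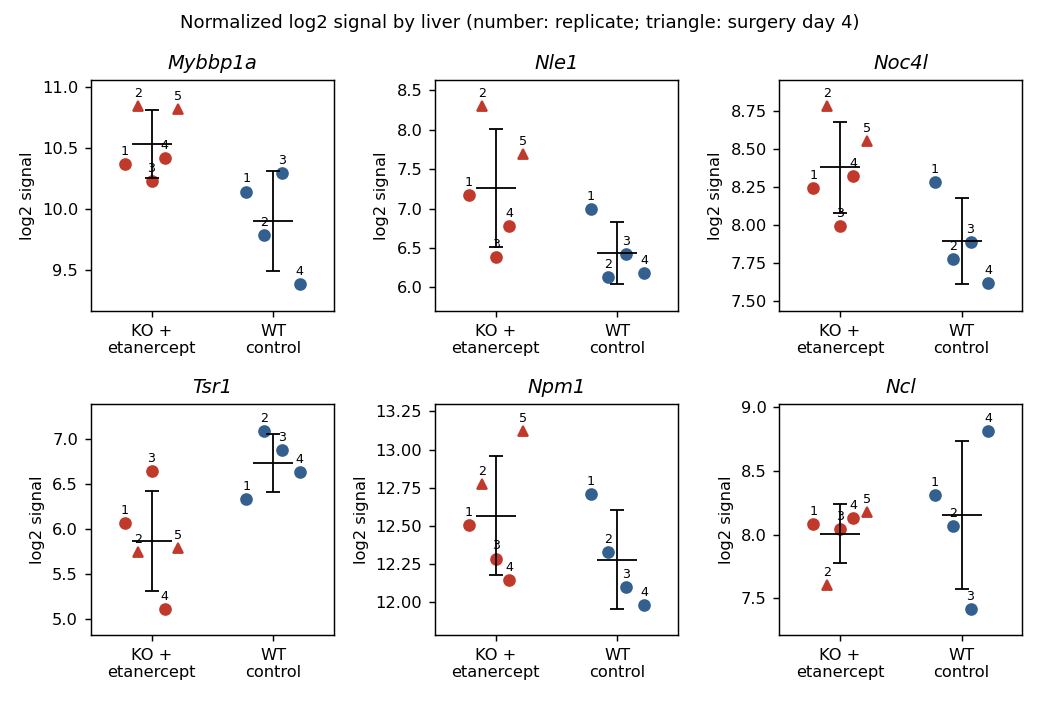
Normalized log2 signal (vertical axes) of single genes by liver, with the KO livers at the left and the WT livers at the right of each panel. Points are livers with their number, triangles are livers of surgery day 4, and black lines are the mean and 1 SD; the groups overlap in each panel, and for Mybbp1a (KO 10.53 ± 0.28, WT 9.90 ± 0.41) and Tsr1 (KO 5.87 ± 0.56, WT 6.74 ± 0.33) only KO 3 reaches into the WT range.

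The box C/D snoRNP proteins, which carry the rRNA methylation guides, had the higher mean in KO livers for 3 of 3 kept genes, with a median of 0.24; with median scaling Rrp9 was lower. Nop58, a core protein, read 11.58, 11.27, 9.95, 10.89 and 10.93 in KO 1 to KO 5 and 10.82, 10.24, 10.42 and 10.44 in WT 1 to WT 4. KO 3 lay below every WT liver, the other KO livers above every one, and the difference was 0.44 ± 0.32. Nop56, its partner in the core, differed by 0.24 ± 0.64 and was missed on KO 4. Rrp9, which binds the U3 snoRNA, read 7.81, 8.37, 7.08, 6.16 and 8.22 in KO 1 to KO 5 and 7.98, 7.26, 7.14 and 7.43 in WT 1 to WT 4. Its KO values spread on both sides of the WT range, and the difference was 0.08 ± 0.43. With surgery day as a block it was −0.54 for Rrp9, and the median of the 3 genes −0.40. Without KO 4, where Rrp9 was missed too, the median of the 3 genes was 0.45.

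Of the box H/ACA snoRNP proteins, which hold the pseudouridylation guides, 3 of 4 were kept; Dkc1, the pseudouridine synthase itself, was detected on no array. Gar1 read 11.28, 11.29, 10.45, 10.97 and 11.43 in KO 1 to KO 5 and 11.27, 10.25, 10.51 and 10.16 in WT 1 to WT 4. WT 1 sat with the high KO livers, KO 3 with the low WT livers, and the difference was 0.54 ± 0.30. Nop10 differed by 0.16 ± 0.25. Nhp2 read 6.37, 8.98, 8.16, 4.60 and 8.24 in KO 1 to KO 5 and 7.21, 7.98, 7.74 and 6.69 in WT 1 to WT 4. The value of KO 4 lay under detection and far below the rest, and the standard error was the largest of the 34 genes, with a difference of −0.13 ± 0.76. Without KO 4 the difference of Nhp2 was 0.53.

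Among the small-subunit processome genes 4 of 4 kept genes had the higher mean in KO livers, with a median of 0.28 and 0 past the threshold; with median scaling Wdr43, Heatr1 and Imp4 were lower. Noc4l, whose yeast counterpart Noc4 works on the pre-40S particle, read 8.24, 8.78, 7.995, 8.32 and 8.55 in KO 1 to KO 5 and 8.28, 7.78, 7.89 and 7.62 in WT 1 to WT 4. KO 2, KO 4 and KO 5 lay above every WT liver, and the difference was 0.49 ± 0.24. Another Noc4l probe differed by −0.03 ± 0.58. Imp4, a U3 snoRNP protein, read 10.18, 10.38, 10.12, 9.97 and 10.22 in KO 1 to KO 5 and 10.35, 9.95, 9.70 and 10.08 in WT 1 to WT 4. WT 1 lay just below KO 2, the highest liver, and the difference was 0.15 ± 0.21, the smallest of these 4 genes. Wdr43 and Heatr1, which act early on the nascent transcript, differed by 0.33 ± 0.29 and 0.22 ± 0.22, and another Heatr1 probe by −0.10.

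The late pre-40S factors held the gene with the smallest p of those lower in mean. Tsr1, a GTPase-like protein on the late pre-40S particle, read 6.06, 5.74, 6.65, 5.11 and 5.79 in KO 1 to KO 5, against 6.34, 7.10, 6.88 and 6.64 in WT 1 to WT 4. Every KO liver but KO 3 lay below every WT liver, and KO 3 reached into the WT range. The means were 5.87 ± 0.56 (SD, n = 5) in KO livers and 6.74 ± 0.33 (SD, n = 4) in WT livers, a difference of −0.87 ± 0.31 (SE), or 0.55-fold, with a 95% interval of −1.54 to −0.19 and a limma adjusted p of 0.931. Another Tsr1 probe differed by −0.03 ± 0.42, so the difference rests on 1 probe, which was missed on KO 4. Blocking on surgery day gave −0.75.

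Ltv1, needed for the release of late pre-40S particles, read 8.50, 8.08, 7.86, 8.90 and 8.65 in KO 1 to KO 5 and 8.24, 7.48, 7.81 and 8.08 in WT 1 to WT 4. KO 1, KO 4 and KO 5 lay above every WT liver, and the difference was 0.50 ± 0.27, and 0.49 with surgery day as a block. Rrp12, a subunit export factor, differed by 0.48 ± 0.30. Pno1 and Nob1, which act together in the last cut of the small-subunit rRNA, differed by 0.21 ± 0.30 and 0.15 ± 0.32. Of the 5 late factors 4 had the higher mean in KO livers, 2 of them (Pno1 and Nob1) not with median scaling, and 0 passed the test.

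Pre-60S factors were the largest group, with 11 of 14 genes kept, 7 higher and 4 lower in mean in KO livers, a median of 0.07 and 0 past the threshold. Nle1, whose yeast counterpart Rsa4 is stripped from the pre-60S particle by the ATPase Rea1, had the highest difference of the 34 genes. It read 7.17, 8.29, 6.38, 6.77 and 7.69 in KO 1 to KO 5 and 6.99, 6.13, 6.43 and 6.18 in WT 1 to WT 4. KO 2, KO 5 and KO 1 lay above every WT liver, while KO 3 and KO 4 lay inside the WT range. The difference was 0.83 ± 0.38, or 1.78-fold, with a 95% interval of −0.0011 to 1.66 and a limma adjusted p of 0.931. The Nle1 difference was 0.34 both with surgery day as a block and without day 4.

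Bop1 and Pes1 belong to the PeBoW complex, which matures the large-subunit rRNA; the remaining member, Wdr12, was detected on no array. Bop1 read 7.97, 7.70, 8.24, 8.38 and 8.24 in KO 1 to KO 5 and 7.90, 8.15, 8.28 and 8.53 in WT 1 to WT 4. KO 2 lay below the WT range and the other KO livers within it. The difference was −0.11 ± 0.23, another Bop1 probe differed by 0.46 ± 0.41, and Pes1 by 0.05 ± 0.29. Ftsj3, a pre-rRNA methyltransferase, read 7.54, 7.90, 7.79, 7.23 and 8.41 in KO 1 to KO 5 and 7.51, 8.002, 8.22 and 7.97 in WT 1 to WT 4. The KO livers held its highest and lowest values, in KO 5 and KO 4, and the difference was −0.15 ± 0.27. Noc3l, a pre-60S transport factor in yeast, read 6.35, 6.93, 6.20, 4.45 and 6.84 in KO 1 to KO 5 and 6.93, 5.89, 6.14 and 6.00 in WT 1 to WT 4. KO 4 was again under detection and lowest, and the difference was −0.08 ± 0.47.

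The other pre-60S genes differed by 0.64 ± 0.36 for Rrp1b, whose 2 further probes gave 0.55 and 0.80, by 0.37 ± 0.36 for Noc2l, by 0.19 ± 0.40 for Brix1, by 0.07 ± 0.43 for Ebna1bp2 and by −0.11 ± 0.73 for Nip7. Nop2, an rRNA cytosine methyltransferase, differed by 0.32 ± 0.37, and its other probes by 0.22 and 0.03. It lies on chromosome 6 at 125131883 to 125144753 (GRCm38.p6), 0.162 Mb from Ltbr. In all, 6 of the 20 additional kept probes of these genes differed in the opposite direction from the probe used, namely 1 probe each of Bop1, Ebna1bp2, Heatr1, Nob1, Noc4l and Polr1a, by −0.10 to 0.46.

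**Figure D4:**
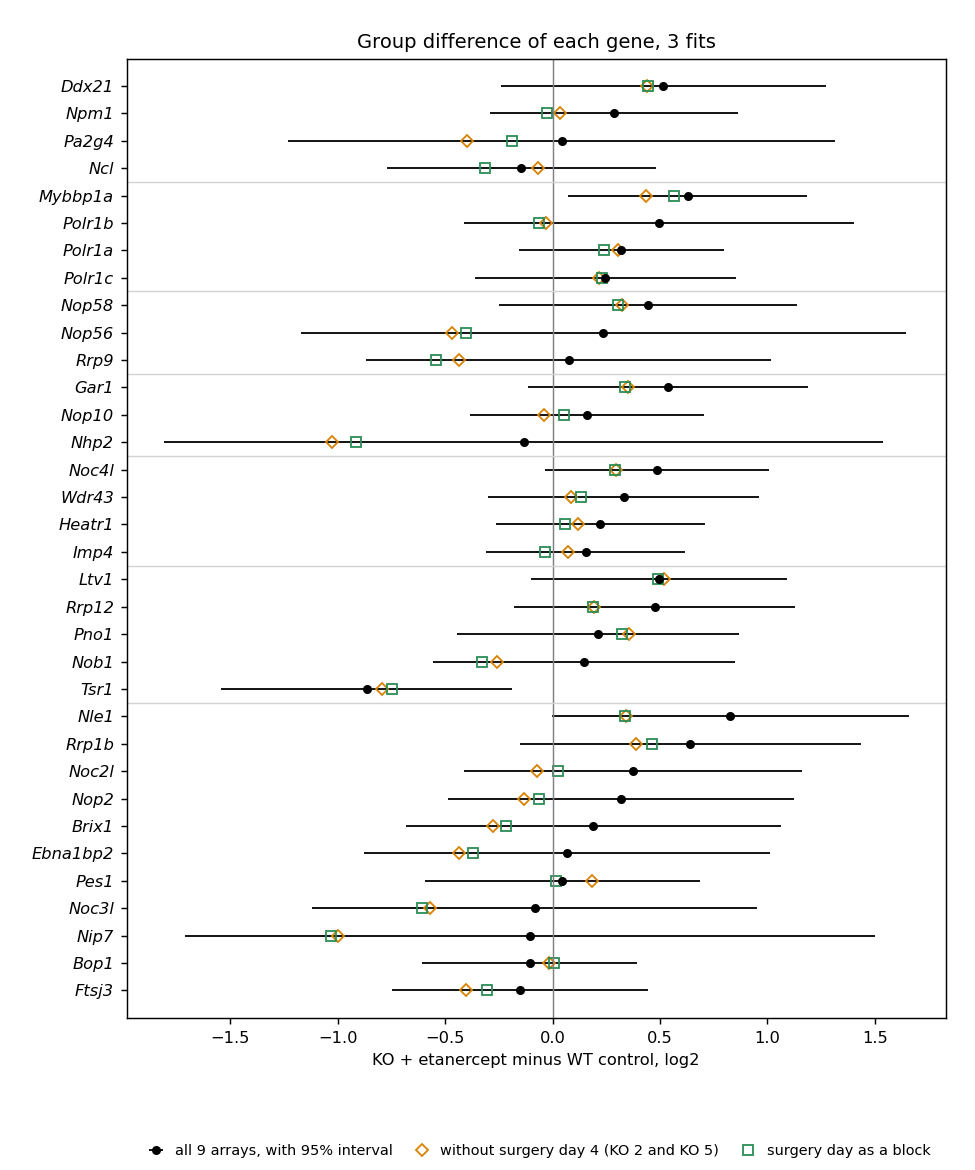
Group difference of each of the 34 genes (KO minus WT, log2, horizontal axis) over all 9 arrays with its 95% interval, without surgery day 4, and with surgery day as a block. The interval excludes 0 for Mybbp1a and Tsr1 only, and the median over the genes is 0.23 over all arrays and 0.01 in both other settings. Neither of those settings takes a group difference from the livers of surgery day 4.

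A further 8 listed genes had a probe but were not kept, and nothing about their group difference can be read. Gnl3 (nucleostemin) was detected on 2 arrays, with raw signals of 83.5 to 128 in KO livers and 101 to 140 in WT livers. Utp14a was detected on 3, with 86.2 to 132 in KO livers and 107 to 135 in WT livers, and Rrs1 on 3, with 88.2 to 171 in KO livers and 112 to 127 in WT livers. Nolc1, Dkc1, Utp20, Utp18 and Wdr12 were detected on 0 arrays. Fbl, fibrillarin, and Ddx18 were not analysed here. All genes that were kept had a probe detected on 8 or 9 arrays, so none entered through 1 group alone. At the border of the detection rule stood a further Brix1 probe, detected on 4 arrays, and further probes of Ebna1bp2 and Mybbp1a, detected on 5.

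Other genes of the pathway came from a list of 147 that were not members. Of these 145 had a probe and 118 were kept; 79 had the higher and 39 the lower mean in KO livers, the median difference was 0.15, and 0 passed the test. Of all features 47.6% were higher in mean. With median scaling the median of the 118 genes was −0.09, where that of all features was −0.26. At an unadjusted p under 0.05 there were 4 higher and 0 lower, where 1.64% of all features passed as higher and 2.45% as lower. The smallest p-values among the higher belonged to Taf1d, a subunit of the RNA polymerase I selectivity factor (0.75 ± 0.29), Csnk1d, a kinase of late pre-40S maturation (0.81 ± 0.34), and Eif6, which keeps the large subunit from joining the small one (0.83 ± 0.36). Those among the lower belonged to the processome proteins Utp6 (−0.72 ± 0.46) and Utp25 (−0.36 ± 0.29) and to Rpap3, a cofactor of snoRNP assembly (−0.43 ± 0.37). By array the median deviation of the 118 genes was 0.10, 0.42, −0.08, −0.21 and 0.33 in KO 1 to KO 5 and 0.15, −0.19, −0.06 and −0.22 in WT 1 to WT 4, so KO 2 and KO 5 were again the highest. With surgery day as a block the median of the 118 was −0.02, and without day 4 −0.01. Both settings leave KO 2 and KO 5 out of the difference.

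By sublist, the median difference was 0.09 over 14 RNA polymerase I and rDNA genes, 0.00 over 9 snoRNP genes, 0.12 over 35 small-subunit processome genes, 0.32 over 8 late pre-40S genes, 0.19 over 39 pre-60S genes and 0.18 over 13 exosome and rRNA trimming genes. With the day block the late pre-40S genes kept a median of 0.43 and the exosome genes of 0.11, and without day 4 the medians were 0.35 and 0.12; the other 4 sublists lay between −0.18 and 0.02 with the block and between −0.17 and 0.04 without day 4. With median scaling the sublist medians, in the order first given, were −0.24, −0.09, −0.06, 0.06, −0.09 and −0.21. Myc itself was near the background of the array. One of its 2 probes was detected on no array and the other on KO 2 only, at a raw signal of 152 there, where the other KO livers read 88.5 to 127 and the WT livers 105 to 116. Max was detected on no array. Of the 12 genes of the Myc and Max network 6 were kept, 4 with the higher and 2 with the lower mean in KO livers, at a median of 0.09.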

How the data were processed

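Biotin-labelled cRNA of 9 livers was read on Illumina mouse bead arrays, 1 array per liver. Per the file headers, the deposited raw table gives every probe on every array an intensity (average bead signal) with its detection p-value. The authors also deposited normalized values, which from their range are on a log2 scale; they were made with Partek (version not stated), per the submitters' processing notes. In those values the mean absolute day coefficients were 4.75e-06 for day 2, 6.48e-06 for day 4 and 4.39e-06 for day 5 against day 1, and 0.0935 for day 3, which held WT 3 alone, where those of the values used here were 0.345 to 0.563. The difference between days 1, 2, 4 and 5 had thus been taken out, how is not stated; these values serve as an alternative only.

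Intensities were background-corrected with limma neqc (negative controls inferred from detection p-values, offset 16), quantile-normalized and log2-transformed. The platform annotation gave 1 gene symbol for 34885 probes, several for 18 and none for 10378. Groups were compared with limma (lmFit, eBayes, two-sided, no covariates), with adjustment over 11559 features and a threshold of 0.05. P-values measure the spread between these livers' arrays, and the number of arrays limits the precision. Differences are KO minus WT on the log2 scale; intervals are 95%. The fit used limma 3.58.1 in R 4.3.3 and was tested on simulated data; tables and figures were made in Python 3.11.15.

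Values on every array are given for the genes with the 5 smallest p-values in each direction, for Ncl, Npm1 and the Polr1 subunits, and for the extremes of each role; of the other pathway genes the 3 with the smallest p in each direction, Myc and Max are named. The members and lists were chosen with earlier results of these data known. Marker lists of neutrophils and monocytes (4 of 9 kept, median difference 0.31), lymphocytes (1 of 11, 0.17), sinusoidal endothelium (10 of 10, 0.10), stellate cells and smooth muscle (8 of 10, 0.10) and cholangiocytes (2 of 6, 0.48) were measured too.

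Surgery day pairs the groups on 3 days, per the labels. Across genes, the deviations from the group means had a correlation of 0.17 between the arrays of day 1, of −0.41 between those of day 2, of −0.56 between those of day 5 and of 0.34 between both KO livers of day 4; genes are not independent replicates. Alternatives covered normalization, background, detection filter, probe choice, day, slide, single arrays, array weights and the authors' values. No value column was left unmapped.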

Additional observations from a re-analysis of the deposited data

Results flagged for a closer look

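In 68 groups of 4 or 5 values (34 genes in each of the KO and WT groups), 2 values stood apart from the rest of their group by Dixon's test at 95%, which chance alone picks out in about 1 of 20 groups. Ncl read 7.61 on the log2 scale in KO 2, where the other KO livers read 8.04 to 8.17; the gap took up 0.772 of the KO range. Pa2g4 read 6.52 in KO 4, where the other KO livers read 8.96 to 9.50; the gap took up 0.821 of the KO range. KO 4 is the dim array, with a mean signal of 143 intensity units, and the part of that in the Pa2g4 value was not tested.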

How the results depend on the processing

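Under 28 of the 29 alternatives with a test, 0 of the member genes tested passed (34 genes, but 21 with detection p under 0.01 on all 9 arrays and 42 with no detection filter); with the authors' deposited values 3 did (Mybbp1a 0.49, adjusted p = 0.0215; Nob1 −0.20, adjusted p = 0.0370; Rrp9 −0.23, adjusted p = 0.0446), where 1072 of all features did (9.27%). The p-values of that fit are too small, since day differences had been taken out of these values before a fit with no day term. After the data were seen, 4 alternatives were added: these values with surgery day as a block (0 genes, 0 features), the same without KO 4 (0 genes, 413 features), and the arrays without day 4 or of days 1, 2 and 5 alone. The median difference was −0.10 with median scaling (13 higher in mean, where 22.7% of all features were; median of all features −0.26), −0.26 within day 5 (9 higher) and 0.56 with array weights (13 genes higher and 1 lower at an unadjusted p under 0.05, where 15.7% of features passed); 17 were higher without day 4. The array weight was 4.92 for KO 5 and 0.14 to 1.72 for the other arrays. The KO mean with array weights thus rested mostly on KO 5, which read high over these genes, so its median is no separate result. Leaving out each array in turn gave medians of 0.14 to 0.41, 21 to 29 genes higher in mean and 0 to 4 called features. Without KO 3, 7 genes were higher and 1 lower at an unadjusted p under 0.05 in limma, where 10.5% of features passed in either direction. Called features over the whole table were 0 with median scaling, the mean over probes, surgery day as a block, slide as a term, either slide alone, KO 4 out with the day block, the authors' values with the day block, without day 4 and on days 1, 2 and 5 alone, 4 without KO 4 before background correction and 10 with array weights. Of 19 genes named with array values 7 kept their sign in every tested alternative, but within day 5, with no test, Nop58 was −0.87, Gar1 −0.83, Noc4l −0.29, Ltv1 −0.37, Nle1 −0.61 and Tsr1 0.31, and of these 7 Mybbp1a alone kept its sign there (0.08); 12 turned it at least once, and the cause was not tested. With the day block, and equally on days 1, 2 and 5 alone, Npm1 was −0.027, Polr1b −0.061, Rrp9 −0.54, Imp4 −0.037 and Bop1 0.0072; without day 4 Polr1b was −0.032 and Rrp9 −0.44. With median scaling Npm1 was −0.17, Polr1a −0.13, Polr1c −0.21, Rrp9 −0.11, Imp4 −0.31 and Noc3l 0.039. Without KO 4 before background correction Nhp2 was 0.53 and Noc3l 0.35, and with the day block added Ddx21 −0.20, Polr1c −0.25, Rrp9 −0.27, Nhp2 0.32 and Imp4 −0.065. With array weights Ncl was 0.042, Nhp2 0.60, Ftsj3 0.20 and Noc3l 0.50. With the authors' values Rrp9 was −0.23, with the day block −0.21, and without KO 4 −0.22, with Polr1c at −0.046. Cyclic loess gave Nhp2 0.27 and Noc3l 0.27, no background correction Nhp2 0.091, slide 1 Nhp2 0.080 and Noc3l 0.23, slide 2 Rrp9 −0.13, and the mean over probes Bop1 0.18. Leaving out each array in turn, Ncl ran from −0.39 to 0.075, Rrp9 from −0.14 to 0.42, Nhp2 from −0.56 to 0.53 and Noc3l from −0.28 to 0.34.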
